A study of Mus musculus with 22 samples.

Results

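Pan-leukocyte genes, which leukocytes of most lineages express, were followed through sorted stromal cells of mouse tumors. They were Ptprc, Coro1a, Laptm5, Cd53, Rac2, Arhgdib, Rasal3, Was, Vav1 and Lcp1, 10 of the 41388 genes counted, and they were picked by symbol with earlier results of these data known; Rasal3 was picked for its difference in the CD45- cells labelled Cdh2-cKO. All 10 passed the filter on low counts, as did 15018 genes in all, and the CD45+ libraries alone would have let each of them pass. The readout was the level of each gene in each CD45- library, as a percent of its mean over the CD45+ libraries.

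The stromal cells came from PyMT-BO1 mammary tumors in C57BL/6 mice, at postnatal day 56. All mice carried Osx-cre and the Ai9 TdTomato reporter. Osx-cre is a Cre recombinase that the Osx (Sp7) promoter drives under tetracycline control, so TdTomato marks cells that made Cre and their descendants, not cells that make Osx at the time of sorting. Tumor cells were GFP-labeled and were sorted away. The stroma was split by TdTomato and by CD45, the protein that Ptprc encodes, into TdT+;CD45- (TdTOSX single positive), TdT+;CD45+ (double positive), TdT-;CD45+ (CD45 single positive) and TdT-;CD45- (double negative) cells. Wild type (WT) mice carried no further allele by their labels, and the other genotype was labelled Cdh2-cKO;Ai9, a conditional knockout by the name, and is written cKO in the names of groups. Of WT mice 4 were inoculated and of mice labelled Cdh2-cKO 6. Each genotype gave 2 libraries of TdT+;CD45- cells and 3 of every other sort. Of these 22 libraries, 10 were CD45- and 12 CD45+. The labels call the libraries biological replicates but tie no library to a mouse, so a p-value measures the spread between these libraries. The tumor site is given as orthotopic in the labels of the libraries and as subcutaneous in the paper and in the design of the series.

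Reads on genes came to 16594228 to 26784003 in a library. The 20 pairs of replicates differed from each other far beyond sampling noise (chi-square of 54.9 to 452 for each degree of freedom), so no library was a copy of another. Levels are counts scaled by TMM-normalized library size (normalized CPM). Cdh2 itself, summed over the whole gene, was higher in the 5 CD45- libraries labelled Cdh2-cKO than in the 5 WT ones. In TdT+;CD45- cells, the ones that TdTomato marks for Cre, it was 17.2 and 13.1 CPM against 9.13 and 5.19 CPM, opposite to a loss. In TdT-;CD45- cells, where the label predicts no loss, it was 12.5 to 18.4 CPM against 4.52 to 7.47 CPM. The part of Cdh2 that was deleted was not given in the sources used here, and every direction between genotypes below is between libraries as labelled. Sp7 had 0 or 1 count in every library. Fibroblast genes (9 genes, led by Col1a1 and Col1a2) summed to 4595 to 63158 CPM in the CD45- libraries and to 69.2 to 232 CPM in the CD45+ ones. WT TdT-;CD45+ library 2 stood apart, with 3891 CPM over 7 B cell genes against 14.3 to 30.2 in the other CD45+ libraries and 3947 CPM over 9 macrophage genes against 12168 to 17653.

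Leukocytes share a set of proteins that few other cells make. CD45 is a receptor tyrosine phosphatase that resets the Src family kinases of antigen and integrin receptors, and it is the usual surface marker for sorting leukocytes from other cells. Downstream of these receptors, Vav and Rac proteins of the hematopoietic line signal to the actin cytoskeleton, which moves leukocytes through tissue. In tumors such cells lie among fibroblasts and vessels, and their dissociated stroma holds both.

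The 10 genes fall into 3 groups by role. At membranes act Ptprc (CD45, ENSMUSG00000026395, chr1:138063407-138175706, minus strand), Cd53 (a tetraspanin of leukocytes, ENSMUSG00000040747, chr3:106758861-106790149, minus strand) and Laptm5 (a lysosomal membrane protein of hematopoietic cells, ENSMUSG00000028581, chr4:130913125-130936141, plus strand). In signalling act Vav1 (an exchange factor that loads Rac with GTP, ENSMUSG00000034116, chr17:57279100-57328031, plus strand), Rac2 (the hematopoietic Rac GTPase, ENSMUSG00000033220, chr15:78559169-78572783, minus strand), Arhgdib (ENSMUSG00000030220, chr6:136923523-136941899, minus strand) and Rasal3 (a Ras GTPase-activating protein, ENSMUSG00000052142, chr17:32390659-32403583, minus strand). On actin act Coro1a (coronin 1A, which binds filaments, ENSMUSG00000030707, chr7:126699773-126707787, minus strand), Was (WASP, which switches on the Arp2/3 complex, ENSMUSG00000031165, chrX:8081453-8090498, minus strand) and Lcp1 (L-plastin, which bundles filaments, ENSMUSG00000021998, chr14:75131101-75230842, plus strand). Positions are those of GENCODE release M21 on GRCm38. Was overlaps the small RNA gene Gm22083, with 0 counts in all libraries together, and Lcp1 overlaps Gm15628 and the antisense gene Gm15629, with 16 counts together.

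Since the genes moved together over the libraries, their RefSeq promoters (GRCm38.p6, 250 bases before to 50 after the start) were read for 3 motifs on both strands. A promoter was found for 9 of the 10 genes, in 15 windows, and none for Rac2. The letters GAGGAA, the core that PU.1 of the myeloid and B cell line binds (TTCCTC on the other strand), stood in 8 of the 15 windows and in 7 of the 9 genes, and in 28.3% of all 32851 windows of this length. That share is of windows, so it does not compare with the count of genes. The Rasal3 windows that begin at chr17:32403532 and chr17:32403533 overlap and count the same match. TGTGGT, the core of RUNX sites, stood in 3 windows, and in 16.8% of all. TATAAA also stood in 3, and in 13.6% of all. The 3 membrane genes are shown, because Ptprc defines the sort, Cd53 departed from it in several libraries, and Laptm5 had the highest mean in the CD45+ libraries; capitals mark GAGGAA or TTCCTC, and each is written 5′ to 3′ on the strand of its gene.
Ptprc, chr1:138175256-138175555, minus strand: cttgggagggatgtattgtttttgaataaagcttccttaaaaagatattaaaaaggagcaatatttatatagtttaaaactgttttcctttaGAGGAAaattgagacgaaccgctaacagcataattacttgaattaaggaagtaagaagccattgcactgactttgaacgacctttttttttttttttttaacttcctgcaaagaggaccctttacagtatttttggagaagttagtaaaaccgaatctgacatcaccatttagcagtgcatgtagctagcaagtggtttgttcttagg
Cd53, chr3:106790100-106790399, minus strand: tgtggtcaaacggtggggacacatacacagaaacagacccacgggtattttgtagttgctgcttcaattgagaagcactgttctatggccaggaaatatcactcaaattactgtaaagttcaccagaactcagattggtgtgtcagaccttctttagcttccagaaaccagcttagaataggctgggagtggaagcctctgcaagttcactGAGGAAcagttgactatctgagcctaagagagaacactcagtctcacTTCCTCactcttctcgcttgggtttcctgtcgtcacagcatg
Laptm5, chr4:130913066-130913365, plus strand: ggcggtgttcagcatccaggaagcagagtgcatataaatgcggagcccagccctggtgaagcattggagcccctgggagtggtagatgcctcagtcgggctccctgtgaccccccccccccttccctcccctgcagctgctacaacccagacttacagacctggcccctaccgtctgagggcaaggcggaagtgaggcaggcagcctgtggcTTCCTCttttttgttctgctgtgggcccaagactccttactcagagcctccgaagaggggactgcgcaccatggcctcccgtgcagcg
Counted from the start of the transcript as 0, the match began at -158 in Ptprc, at -39 and at 8 in Cd53, and at -38 in Laptm5. A second Ptprc window, with a start nearby, held none. A match of 6 letters is a description of the sequence and not a binding site.

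In the CD45+ libraries the 10 genes summed to 11937 to 16084 CPM, or 1.07% to 1.63% of all counts, and in the CD45- libraries to 477 to 7601 CPM, or 0.0555% to 0.771%. Each of the 10 was lower in every CD45- library than in any CD45+ library. This sort is the contrast on which the genes were chosen, so it is given with no test; of the 15018 genes tested, 3.71% had every CD45+ library above every CD45- one. A lower level in sorted bulk cells does not tell fewer cells of a type from less RNA per cell.

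Among the membrane genes, Ptprc lay between 472 and 1821 CPM in the 12 CD45+ libraries, with a median of 564. The highest value was that of WT TdT-;CD45+ library 2, and the other 11 libraries reached at most 711. In the CD45- libraries Ptprc was 2.45 and 81.2 CPM in WT TdT+ cells, 4.46, 38.6 and 337 in WT TdT- cells, 164 and 89.9 in cKO TdT+ cells, and 9.31, 15.7 and 10.8 in cKO TdT- cells. The WT libraries of the same population thus lay far apart, whereas the 3 cKO TdT-;CD45- libraries lay close together.

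Laptm5 lay between 2357 and 4119 CPM in the CD45+ libraries, with a median of 3112. In the CD45- libraries it was 15.3 and 546 CPM in WT TdT+ cells, 23.8, 344 and 2053 in WT TdT- cells, 1540 and 482 in cKO TdT+ cells, and 54.0, 91.0 and 68.4 in cKO TdT- cells. The order of the libraries was close to that of Ptprc. Cd53 lay between 2287 and 5258 CPM in the CD45+ libraries, with a median of 3111. It was 175 and 559 CPM in WT TdT+;CD45- cells, 123, 230 and 1462 in WT TdT-;CD45- cells, 1145 and 616 in cKO TdT+;CD45- cells, and 191, 133 and 265 in cKO TdT-;CD45- cells. Cd53 therefore never fell below 123 CPM, and its highest and lowest CD45- values lay closer in proportion than those of Ptprc or Laptm5.

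In the signalling group, Rac2 was 638 to 1925 CPM in the CD45+ libraries (median 968). In the CD45- libraries it was 4.44 and 137 CPM in WT TdT+ cells, 5.75, 93.7 and 492.7 in WT TdT- cells, 319 and 176 in cKO TdT+ cells, and 18.3, 27.9 and 20.8 in cKO TdT- cells. Vav1 was 80.3 to 134 CPM in the CD45+ libraries. It was 4.59 and 22.1 CPM in WT TdT+;CD45- cells, 1.65, 9.57 and 57.0 in WT TdT-;CD45- cells, 36.3 and 21.4 in cKO TdT+;CD45- cells, and 2.52, 2.23 and 3.13 in cKO TdT-;CD45- cells. Both had the same library on top as Ptprc.

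Arhgdib differed from them in its lower end. It was 1479 to 2227 CPM in the CD45+ libraries, and 455 and 611 CPM in WT TdT+;CD45- cells, 290, 407 and 1131 in WT TdT-;CD45- cells, 683 and 480 in cKO TdT+;CD45- cells, and 184, 141 and 321 in cKO TdT-;CD45- cells. The lowest of these values was 141 CPM, where the lowest of Rac2 was 4.44. Rasal3 was the gene with the fewest reads, at 6.10 to 28.3 CPM in the CD45+ libraries. Its CD45- counts were 0 and 54 in WT TdT+ cells, 2, 5 and 71 in WT TdT- cells, 68 and 55 in cKO TdT+ cells, and 1, 0 and 0 in cKO TdT- cells. A count of 0 allows up to 3 counts, or 1.53% of the CD45+ mean in WT TdT+;CD45- library 1 and 1.45% and 1.25% in cKO TdT-;CD45- libraries 2 and 3. These limits cover counting error only, because the reads carry no molecular identifiers.

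Of the actin genes, Coro1a was 869 to 1920 CPM in the CD45+ libraries. In the CD45- libraries it was 8.52 and 161 CPM in WT TdT+ cells, 7.91, 120 and 607 in WT TdT- cells, 392 and 269 in cKO TdT+ cells, and 19.2, 30.4 and 22.6 in cKO TdT- cells. Lcp1 was 1977 to 3196 CPM in the CD45+ libraries. It was 12.6 and 307 CPM in WT TdT+;CD45- cells, 20.5, 162 and 1447 in WT TdT-;CD45- cells, 998 and 371 in cKO TdT+;CD45- cells, and 45.3, 57.1 and 67.5 in cKO TdT-;CD45- cells. Both came close to the order of Ptprc. Was was low throughout, at 14.9 to 30.1 CPM in the CD45+ libraries, and at 1.68 and 6.63 CPM in WT TdT+;CD45- cells, 0.414, 2.00 and 9.42 in WT TdT-;CD45- cells, 6.96 and 3.42 in cKO TdT+;CD45- cells, and 0.526, 0.582 and 0.458 in cKO TdT-;CD45- cells. The lowest of these, in WT TdT-;CD45- library 1 and the cKO TdT-;CD45- libraries, rest on 9 to 12 counts each.

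**Figure D1:**
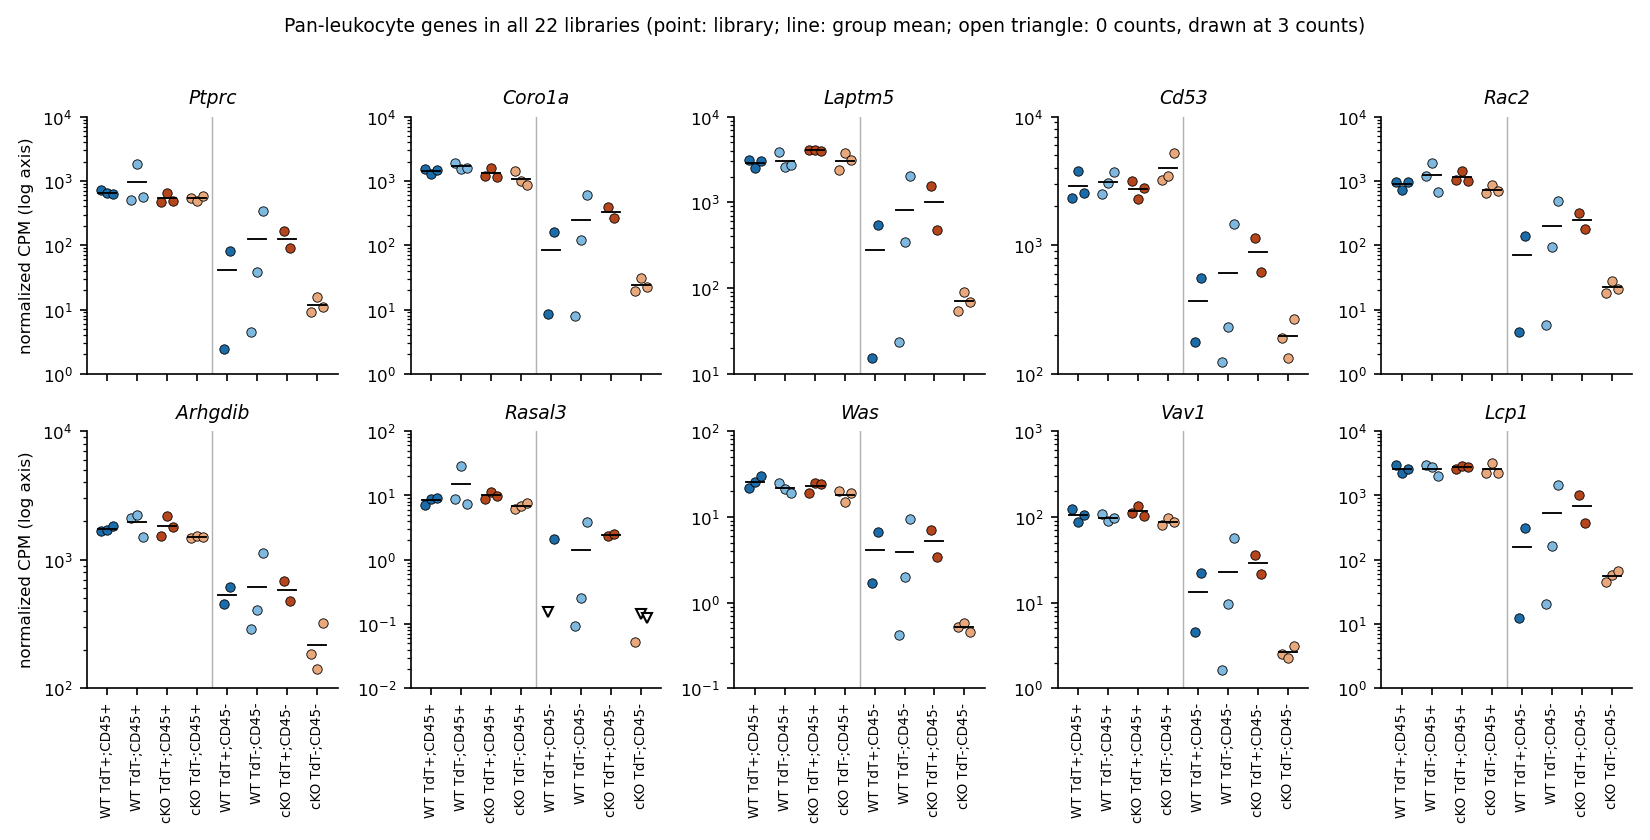
Normalized CPM (vertical log axis) of the 10 genes in 22 libraries, by group, with CD45+ groups left and CD45- groups right of the grey line. Points are libraries, black lines are group means (not drawn where a library had 0 counts) and open triangles are libraries with 0 counts drawn at 3 counts. Every CD45+ point of a gene lies above its CD45- points. The WT CD45- groups are the widest for most genes. Arhgdib is an exception, with WT TdT+;CD45- cells (455 and 611 CPM) narrower than cKO TdT-;CD45- cells (141 to 321 CPM).

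Set against the CD45+ mean, the genes ordered the libraries much alike. The median over the 10 genes was 0.549% and 17.2% of the CD45+ mean in WT TdT+;CD45- libraries 1 and 2, and 0.850%, 8.88% and 49.6% in WT TdT-;CD45- libraries 1, 2 and 3. It was 33.7% and 18.4% in cKO TdT+;CD45- libraries 1 and 2, and 1.77%, 2.49% and 2.09% in cKO TdT-;CD45- libraries 1, 2 and 3. As group means these came to 8.86% ± 11.8 (SD, n = 2), 19.8% ± 26.1 (SD, n = 3), 26.1% ± 10.8 (SD, n = 2) and 2.12% ± 0.359 (SD, n = 3). In both WT groups the SD exceeded the mean. The WT TdT-;CD45- value rested on library 3: without it the mean of the other libraries was 4.87%. The WT TdT+;CD45- value rested on both of its libraries, at 0.549% or 17.2% alone.

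How far the genes kept together depended on the gene. Ptprc, Coro1a, Laptm5, Rac2 and Lcp1 stayed within 0.365% to 0.618% in WT TdT+;CD45- library 1, which had the lowest median, and within 0.571% to 0.781% in WT TdT-;CD45- library 1. In the cKO TdT-;CD45- libraries they stayed within 1.39% to 1.82%, 2.18% to 2.79% and 1.61% to 2.58%. In WT TdT-;CD45- library 3, which had the highest median, they lay between 44.1% and 62.9%. These 5 genes were grouped after their values were seen.

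Arhgdib and Cd53 lay above that group wherever the group was low. Arhgdib was at 25.9% of its CD45+ mean in WT TdT+;CD45- library 1, which is 47.2 times the median of the 10 genes there, and at 16.5% in WT TdT-;CD45- library 1. It was at 10.48%, 8.02% and 18.3% in the cKO TdT-;CD45- libraries. In WT TdT-;CD45- library 3, with the highest median, it was at 64.4%. Arhgdib exceeded the median in all 10 CD45- libraries, and Cd53 in 8 of them. Cd53 was at 5.53% in WT TdT+;CD45- library 1, at 3.88% in WT TdT-;CD45- library 1, and at 6.02%, 4.20% and 8.34% in the cKO TdT-;CD45- libraries. Both genes had 2676 or more reads in each of these libraries, which leaves little counting error in these values.

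Was and Vav1 lay apart in fewer libraries. In WT TdT+;CD45- library 1 Was was at 7.66% (33 counts) and Vav1 at 4.53% (90 counts), 13.96 and 8.25 times the median of 0.549%. In the cKO TdT-;CD45- libraries Was was at 2.09% to 2.65% and Vav1 at 2.20% to 3.08%, near the medians there. Rasal3 lay at or below the median in 7 of the 10 CD45- libraries. It was at 20.9% in WT TdT+;CD45- library 2, 39.0% in WT TdT-;CD45- library 3, and 23.3% and 25.03% in the cKO TdT+;CD45- libraries. In WT TdT-;CD45- library 2 it was at 2.56% (5 counts) where the median was 8.88%. The CD45+ means of Rasal3 and Ptprc include WT TdT-;CD45+ library 2, which was high in both, so every percent of these genes is lowered by it.

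**Figure D2:**
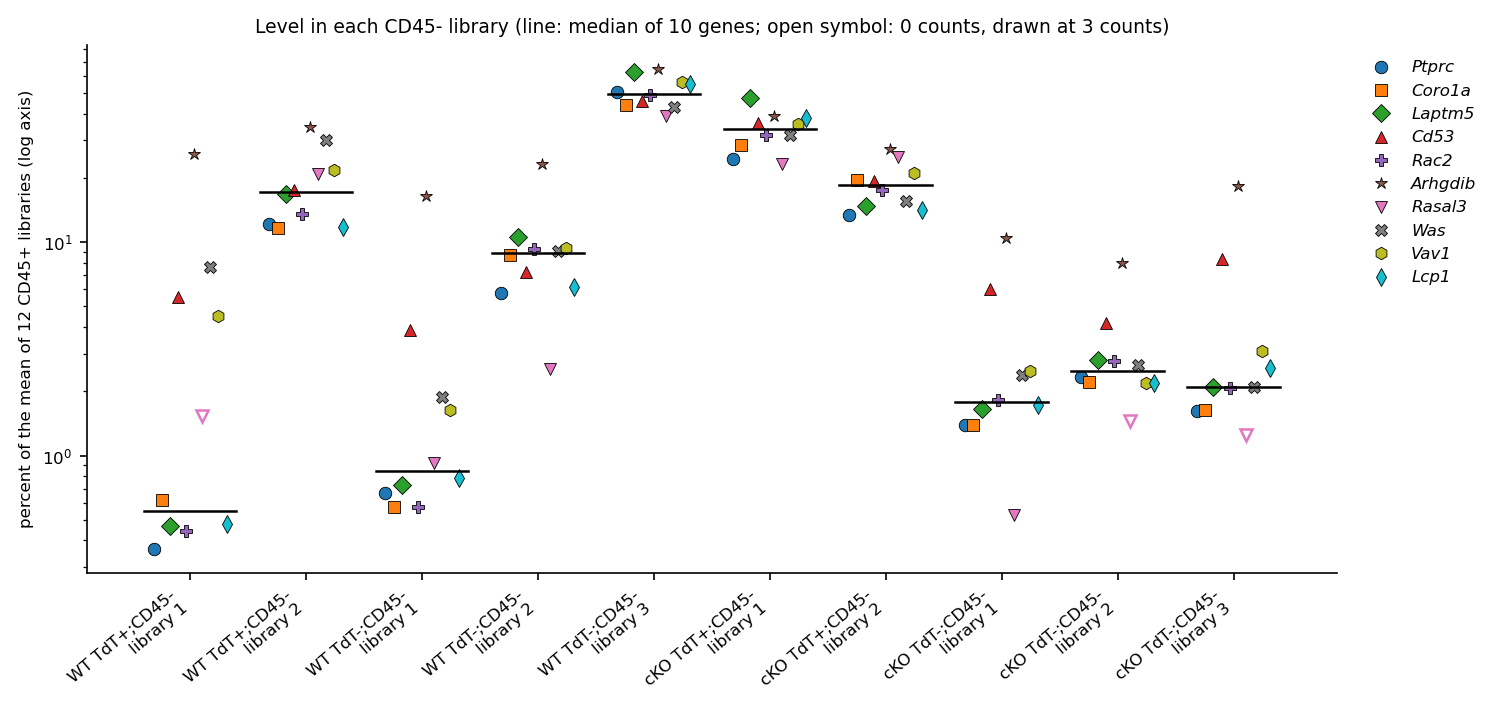
Level of each gene in each of the 10 CD45- libraries as percent of its mean over the 12 CD45+ libraries (vertical log axis). Symbols are genes, black lines are the median over the 10 genes and open symbols are 0 counts drawn at 3 counts. Arhgdib (star) is above the line in every library, and the symbols lie closest together in WT TdT-;CD45- library 3 (39.0% to 64.4%).

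Close relatives of the genes that many cell types use were read beside them, per length, as RPKM on the TMM-scaled totals. Coro1b was listed at 0 in every library, which leaves 10 relatives. Of these, 5 lay higher in every CD45- library than in any CD45+ library, as 11% of the genes tested did. They were Laptm4a (363 ± 104 RPKM in CD45+ against 771 ± 193 in CD45- libraries, SD, n = 12 and n = 10), Cd151 (20.8 ± 6.01 against 50.5 ± 14.5), Rasal2 (0.189 ± 0.0697 against 0.974 ± 0.280), Wasl (1.13 ± 0.337 against 4.17 ± 1.41) and Pls3 (23.4 ± 9.66 against 88.5 ± 38.3). Laptm4a is a lysosomal protein related to Laptm5, Wasl is N-WASP and Pls3 is T-plastin. The other 5 overlapped between the sorts: Ptpra was 13.9 ± 1.30 against 13.7 ± 1.76 RPKM, Rac1 74.7 ± 13.4 against 53.3 ± 7.37, Arhgdia 639 ± 147 against 456 ± 94.0, Coro1c 16.6 ± 3.84 against 10.4 ± 3.48 and Vav2 1.56 ± 0.497 against 0.937 ± 0.317.

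Within a library, the ratio of a gene to its relative does not depend on the library total. The ratio of Ptprc to Ptpra was 1.74 to 7.89 in the CD45+ libraries and 0.00834 to 1.502 in the CD45- ones. That of Lcp1 to Pls3 was 6.33 to 26.9 in the CD45+ libraries and 0.0242 to 3.16 in the CD45- ones. Neither ratio overlapped between the sorts. Nor did those of Laptm5 to Laptm4a, Cd53 to Cd151, Rac2 to Rac1, Rasal3 to Rasal2 and Was to Wasl. The pan-leukocyte genes were chosen on this contrast of sorts and do not overlap by themselves, so the ratios are given with no test. The ratio of Arhgdib to Arhgdia, 1.05 to 3.73 in the CD45+ and 0.152 to 1.21 in the CD45- libraries, did overlap. So did that of Vav1 to Vav2, with 8.84 to 24.1 against 0.500 to 15.8, and that of Coro1a to Coro1c, with 18.6 to 81.3 against 0.357 to 19.3.

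**Figure D3:**
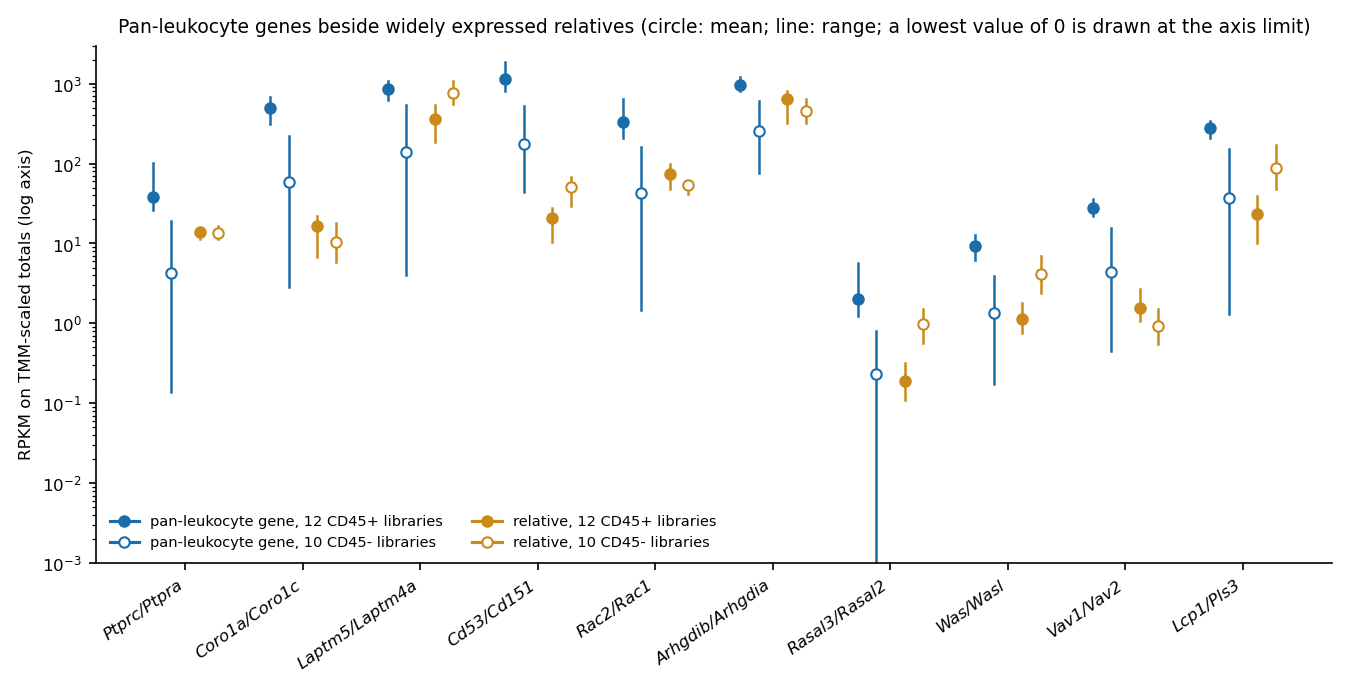
RPKM on TMM-scaled totals (vertical log axis) of each pan-leukocyte gene (blue) and its relative (ochre), in 12 CD45+ libraries (filled) and 10 CD45- libraries (open). Circles are means and lines the range over libraries; the range of Rasal3 in CD45- libraries reaches 0. The blue open circles lie below the filled ones in every pair, while 5 relatives (Laptm4a, Cd151, Rasal2, Wasl, Pls3) are higher in CD45- libraries.

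A wider list of 20 other pan-leukocyte genes was read the same way. Its median over genes was 0.541% and 14.1% in the WT TdT+;CD45- libraries, 0.871%, 7.36% and 50.1% in the WT TdT-;CD45- libraries, 27.3% and 15.5% in the cKO TdT+;CD45- libraries, and 1.60%, 2.07% and 1.89% in the cKO TdT-;CD45- libraries. Tbc1d10c of this list was listed at 0 in every library and Evi2b was near 0. Of the 18 genes of the list that were tested, Lsp1, an actin-binding protein of leukocytes, had the highest median percent over the 10 CD45- libraries (32.2%), and Cytip, a partner of the exchange factor cytohesin, the lowest (2.93%).

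Markers of macrophages moved with the 10 genes across the CD45- libraries. The 9 macrophage genes, led by C1qb of the complement system and the lysosomal glycoprotein Cd68, summed to 144 and 2545 CPM in the WT TdT+;CD45- libraries and to 160, 1438 and 9177 CPM in the WT TdT-;CD45- libraries. They summed to 6725 and 2434 CPM in the cKO TdT+;CD45- libraries and to 248, 340 and 212 CPM in the cKO TdT-;CD45- libraries. This is the order of the 10 genes but for neighbours with close values. As percent of their CD45+ mean the summed macrophage genes were at 1.02%, 18.1%, 1.14%, 10.2%, 65.1%, 47.7%, 17.3%, 1.76%, 2.41% and 1.504%, in the order of libraries just given. Each of the 9 had at least 1 count in each CD45- library, so no defining marker was at 0.

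The lists of other leukocyte types summed to less than the macrophage genes in both sorts. The 8 T cell genes summed to 3.59 to 39.4 CPM in the CD45- libraries against a median of 70.6 CPM in the CD45+ libraries, the 7 B cell genes to 1.11 to 16.8 CPM against 19.0, and the 5 NK cell genes to 0.789 to 8.33 CPM against 10.8. In WT TdT-;CD45- library 3, the highest in the 10 genes, these lists stood at 39.4, 16.8 and 6.61 CPM, and T and B cell genes were at their CD45- maximum there. B and NK cell genes did not keep the order of the 10 genes throughout. NK cell genes were at 8.33 CPM in WT TdT+;CD45- library 2 and at 1.58 CPM in cKO TdT+;CD45- library 1. B cell genes were at 3.73 and 2.32 CPM in WT TdT+;CD45- libraries 1 and 2. The 39.4 CPM of T cell genes lay within the range of the CD45+ libraries, which began at 29.6 CPM. The 7 neutrophil genes summed to 2.25 to 48.4 CPM against a CD45+ median of 100.2, and the 6 dendritic cell genes to 3.64 to 39.5 CPM against 36.8, both with WT TdT-;CD45- library 3 on top. Pax5 of B cells had 0 counts in 8 of the 10 CD45- libraries and Ly6g of neutrophils in 5. Both were also low in CD45+ libraries, so these zeros tell little. Pax5 ran from 0 to 24.5 CPM there (mean 2.06), and Ly6g had 13 counts in all CD45+ libraries together. The 9 erythroid and platelet genes summed to 10.8 to 3045 CPM in the CD45- libraries, led by the globin gene Hbb-bs (mean 277 CPM). Their sum followed another order, with WT TdT-;CD45- library 2 as the highest. In the CD45+ libraries they summed to 301 to 1671 CPM, led by Pf4 (mean 1044 CPM), and Hbb-bs averaged 6.17 CPM. Pf4 averaged 152 CPM in the CD45- libraries, with a median of 6.46% of its CD45+ mean. The part of macrophages or other CD45+ cells in the values of the 10 genes was not tested. Fibroblast genes were present in each CD45- library. They were lowest in WT TdT-;CD45- library 3 (4595 CPM) and highest in WT TdT+;CD45- library 1 (63158 CPM). These are also the libraries with the highest and the lowest median of the 10 genes. The rest did not keep such an opposite order. The cKO TdT-;CD45- libraries had 9812 to 15839 CPM of fibroblast genes and medians of 1.77% to 2.49%. In cKO TdT+;CD45- library 2 fibroblast genes were at 30453 CPM and the median at 18.4%. Epithelial genes, led by Krt18 and Krt8, summed to 41.5 to 1998 CPM, with the highest value in cKO TdT-;CD45- library 2. The genes of this list did not go one way between the sorts. Krt18 averaged 708 CPM in the CD45- and 55.2 CPM in the CD45+ libraries. Cdh1 averaged 21.4 against 205 CPM and Epcam 0.267 against 3.26 CPM. Endothelial genes summed to 50.1 to 464 CPM, lowest in WT TdT-;CD45- library 3 and highest in cKO TdT-;CD45- library 3. The share of mitochondrial reads was highest in WT TdT-;CD45- library 2 (13.7%) and cKO TdT-;CD45- library 1 (10.6%), which were at 8.88% and 1.77% for the 10 genes.

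**Figure D4:**
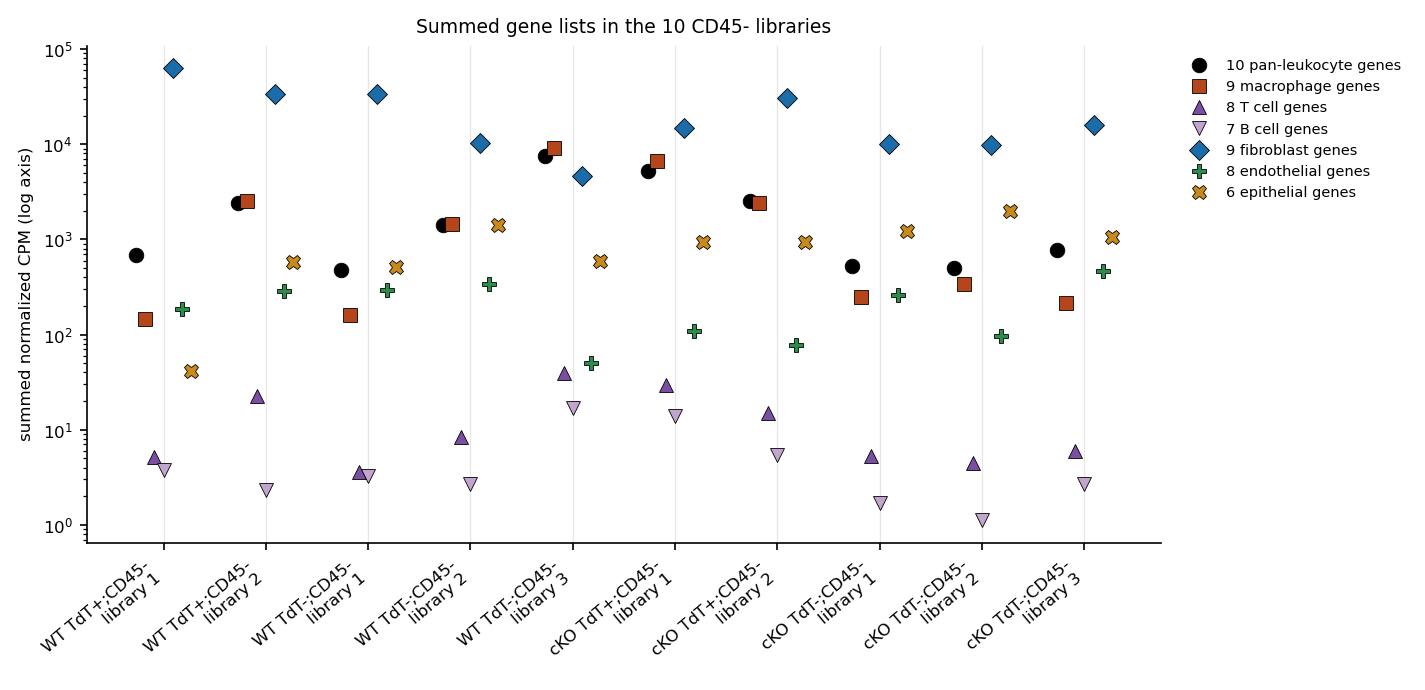
Summed normalized CPM (vertical log axis) of 7 gene lists in each of the 10 CD45- libraries. Each symbol is a list in a library. The 10 pan-leukocyte genes (black) and the 9 macrophage genes (red squares) have their highest values in WT TdT-;CD45- library 3 (7601 and 9177 CPM), where fibroblast genes (blue) are lowest (4595 CPM).

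The genes whose pattern was most like the mean of the 10 genes, over 22 libraries and on log2 CPM with a prior count of 2, were Tnfrsf13b (Pearson r = 0.995), March1 (0.995), Parvg (0.993), Nckap1l (0.993) and Tspan32 (0.993), out of 15008. Tnfrsf13b encodes the receptor TACI and March1 a ubiquitin ligase that acts on MHC class II, while Parvg and Nckap1l belong to leukocyte adhesion and actin control. The points share their libraries and fall into CD45+ and CD45- clusters, so r describes mainly that difference. Over the 10 CD45- libraries alone r was 0.980 to 0.995, and over the 12 CD45+ libraries 0.113 to 0.832. Nckap1l had the lowest of the latter.

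The first comparison within a sort asked whether TdTOSX+ cells differ from TdTOSX- cells when both are CD45+. None of the 10 genes did so by the test, which was edgeR's quasi-likelihood test with Benjamini-Hochberg adjustment over 15018 genes (called at an adjusted p of at most 0.05). Of all genes, 1 was called (0.00666%). At an unadjusted p under 0.05, 609 genes passed and none of the 10 did. The log2 fold changes of TdT+ over TdT- cells ran from -0.31 (Cd53, SE 0.45) to 0.29 (Was, SE 0.45), with a median of 0.06 over the 10 genes and -0.06 over all genes. Each had an adjusted p of 0.9999. Ptprc was 711, 641 and 616 CPM in WT TdT+;CD45+ cells against 510, 1821 and 554 in WT TdT-;CD45+ cells, and 472, 646 and 482 against 545, 482 and 575 in the libraries labelled Cdh2-cKO. These values overlapped in both genotypes.

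The same question in the CD45- cells gave larger differences with larger errors. Rasal3 is left out of this test, because it was chosen on values of these CD45- cells, which are described further on. All 9 others had a positive log2 fold change of TdT+ over TdT- cells, from 0.62 (Arhgdib, SE 0.31) to 1.70 (Was, SE 0.53), with a median of 0.99 against 0.07 over all genes. None was called, while 284 genes (1.89%) were. At an unadjusted p under 0.05, 2 of the 9 and 2847 of all genes passed. The smallest adjusted p of edgeR's quasi-likelihood test were 0.0983 for Was and 0.215 for Vav1 (1.34, SE 0.57). With the replicate number of each genotype as a block, 185 genes and none of the 9 were called, and Was had an adjusted p of 0.0808. The libraries labelled Cdh2-cKO were the ones that separated. There Ptprc was 164 and 89.9 CPM in TdT+ cells against 9.31 to 15.7 in TdT- cells, and Was 6.96 and 3.42 against 0.458 to 0.582, without overlap. In the WT libraries both overlapped, with Ptprc at 2.45 and 81.2 CPM against 4.46 to 337. In the 4 pairs of libraries with the same genotype and number, Was, Vav1, Cd53, Arhgdib and Coro1a were higher in the TdT+ library each time. Of all genes tested, 20.8% were too. The other 4 of the 9 genes were higher in 3 pairs. Library 3 of TdT-;CD45- cells had no TdT+ partner in either genotype and is in no pair. In WT mice that library lay above both TdT+;CD45- libraries for Was, Vav1, Cd53, Arhgdib and Coro1a alike. Was was at 9.42 CPM there against 1.68 and 6.63, and Coro1a at 607 against 8.52 and 161. The difference between the genotypes in the TdT effect was not tested.

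This result changed with the libraries and the tool. Leaving out single libraries moved the count over all genes between 30 and 878. Without WT TdT-;CD45- library 3, 4 of the 9 genes were called (Was, Cd53, Arhgdib and Vav1, with log2 fold changes of 2.56, 1.61, 1.02 and 2.36). Without WT TdT+;CD45- library 2, the median over the 9 genes was -0.53 and none was called. DESeq2 called Was, and limma's voom with quality weights called Was and Vav1. The 9 macrophage genes had a median log2 fold change of 1.08 and the 9 fibroblast genes one of 1.16 in this comparison, each with 9 of 9 positive and none called, and their part in the values of the 9 genes was not tested.

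Between the genotypes, CD45+ cells of mice labelled Cdh2-cKO were compared with those of WT mice, over both TdT populations. None of the 10 genes and none of all 15018 genes was called (0%), with 1299 of all genes and none of the 10 at an unadjusted p under 0.05. DESeq2 called 83 genes and voom 0. The log2 fold changes of the 10 genes ran from -0.57 (Ptprc, SE 0.72) to 0.25 (Laptm5, SE 0.71), with a median of -0.18 against -0.03 over all genes. Ptprc had its highest WT value in TdT-;CD45+ library 2, the library high in B cell genes. Laptm5 was 4090, 4119 and 3925 CPM in cKO TdT+;CD45+ cells against 3140, 2518 and 3000 in WT TdT+;CD45+ cells, without overlap, but 2357, 3755 and 3084 against 3863, 2606 and 2701 in TdT-;CD45+ cells, with overlap. The adjusted p for Laptm5 was 0.961 by edgeR's quasi-likelihood test.

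In the CD45- cells the same comparison again called no gene (0%), with 1537 genes at an unadjusted p under 0.05, 124 called by DESeq2 and 0 by voom. Of the 9 genes other than Rasal3, Was (log2 fold change -1.29, SE 0.54) had the smallest adjusted p, 0.438 by edgeR's quasi-likelihood test, and Cd53 (-0.18, SE 0.51) the smallest change. Was and Arhgdib (-0.69, SE 0.31) were the 2 genes with an unadjusted p under 0.05. The median of the 9 was -0.69 against -0.06 over all genes. Its sign was not stable: it was 0.28 without WT TdT-;CD45- library 3, 0.97 without WT TdT+;CD45- library 2 and 0.45 with voom. The TdT populations went opposite ways. Lcp1, for example, averaged 685 ± 444 CPM (SD, n = 2) in cKO TdT+;CD45- against 160 ± 208 (n = 2) in WT TdT+;CD45- cells, and 56.6 ± 11.1 (n = 3) in cKO TdT-;CD45- against 543 ± 786 (n = 3) in WT TdT-;CD45- cells. The opposite directions were not tested.

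Rasal3 was chosen on its difference in the CD45- cells labelled Cdh2-cKO, so its values are given as a description with no test. In TdT-;CD45- cells it was 0.0526, 0 and 0 CPM in the libraries labelled Cdh2-cKO, with 1 count in all, and 0.0919, 0.256 and 3.91 CPM in the WT ones, with 2, 5 and 71 counts. The 2 lower WT values lie at or near the level of 3 counts, so the separation rests on library 3. In TdT+;CD45- cells it was 2.33 and 2.51 CPM in the libraries labelled Cdh2-cKO and 0 and 2.09 CPM in the WT ones. Rasal3 was thus low where the median of the 10 genes was low, in both genotypes. Not every gene was low there: Arhgdib was at 25.9% in WT TdT+;CD45- library 1, where Rasal3 had 0 counts. In the library with the highest WT value its percent of the CD45+ mean, 39.0%, was the lowest of the 10 genes. This rank depends on the reference, because the CD45+ mean of Rasal3 includes WT TdT-;CD45+ library 2, at 28.3 CPM. The other CD45+ libraries reached at most 11.4 CPM, and their mean was 8.35 CPM. Against that mean the 3.91 CPM of Rasal3 ranked above Was, at 9.42 CPM against a mean of 22.1 CPM without the same library.

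Whether the TdT effect in CD45+ cells differs between the genotypes was tested with an interaction term. None of the 10 genes and none of all genes was called (0%) by edgeR's quasi-likelihood test, with 655 genes at an unadjusted p under 0.05 and 0 calls by DESeq2 or voom. The log2 differences ran from -0.43 (Cd53, SE 0.91) to 1.37 (Rasal3, SE 1.35), and the smallest adjusted p was 0.961. The highest 3 were those of Rasal3, Rac2 (1.16, SE 1.395) and Ptprc (0.55, SE 1.44). These genes had their highest CD45+ value in WT TdT-;CD45+ library 2, at 28.3, 1925 and 1821 CPM. So did Arhgdib, at 2227 CPM, with a difference of 0.45 (SE 0.56). Coro1a (0.49, SE 1.29) and Laptm5 (0.48, SE 1.43) had larger differences than Arhgdib and were highest in other libraries. The part of that library in these differences was not tested. Of the wider list, 18 of 20 pan-leukocyte genes were tested, and none was called in any of the 5 comparisons. In the TdT comparison within CD45- cells 18 of those 18 had a positive change, with a median of 0.90.

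**Figure D5:**
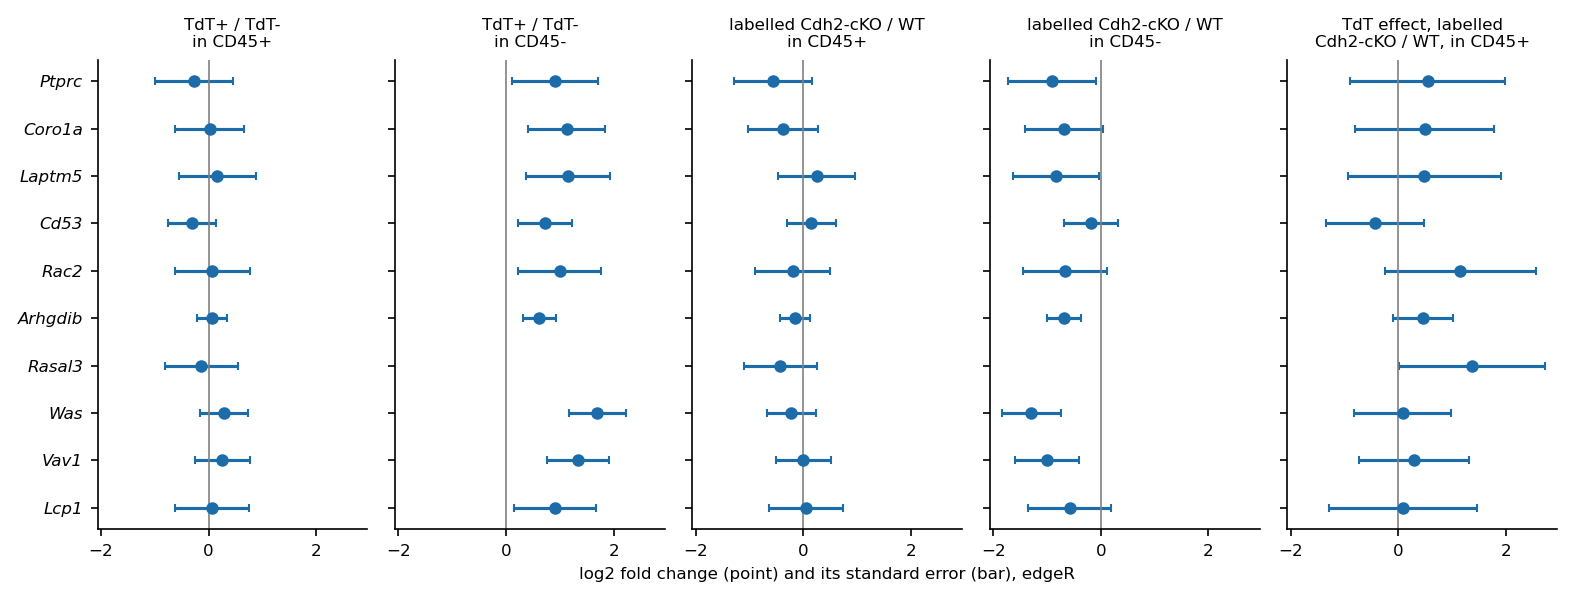
Log2 fold change (horizontal axis, points) with its standard error (bars) of the 10 genes in the 5 comparisons, from edgeR. Rasal3 is left out of both comparisons in CD45- cells, on whose values it was chosen. All 9 points lie right of 0 for TdT+ over TdT- in CD45- cells (0.62 to 1.70), and no point in any panel passed the test.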

How the data were processed

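Libraries were made by the authors with the SMARTer Ultra Low RNA kit from 10 ng of RNA and sequenced as single 50-base reads. Per the labels and the paper, the authors aligned reads with STAR 2.0.4b to Ensembl release 76 (GRCm38) and made the deposited counts with featureCounts from uniquely aligned, unambiguous reads, so reads shared by near-identical genes are missing; use of strand was not stated. The CPM and RPKM columns that the authors deposited are these counts divided by library total and gene length; they served only to check the counts (largest relative deviation 5.1e-14). Of 41388 genes, 40340 matched a GENCODE M21 symbol.

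The tests kept genes above 1 CPM in 2 or more libraries, and left out the 355 genes annotated as rRNA. edgeR 4.0.16 (R 4.3.3) fitted a quasi-likelihood model with TMM factors and 1 mean for each of 8 groups. Normalized CPM are counts over TMM-scaled totals, and RPKM given here divide these by exon length. Alternatives were limma 3.58.1 voom with quality weights (the test of the paper), DESeq2 1.42.0, RLE factors, no filter, a replicate block, other CD45+ references and leaving out libraries. DESeq2 gave no p-value for 101 genes, which were not called. The fit was tested on simulated data. Replicate numbers were taken to pair libraries where every same-numbered pair correlated above 0.1 in deviations from group means. This held for TdT+ and TdT- libraries in CD45- cells (4 pairs, 0.113 to 0.593) but not in CD45+ cells (6 pairs, -0.296 to 0.412). In groups of 2 such deviations mirror each other. Libraries with different numbers could correlate more. WT TdT+;CD45- library 2 was at 0.428 with WT TdT-;CD45- library 3 and at 0.215 with WT TdT-;CD45- library 2. The labels tie no number to a mouse, so the pairing was assumed.

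The 10 genes and all lists were chosen with earlier results of these data known. Named are these 10 genes, their relatives, the extremes of the wider list, the 5 most similar genes, the most abundant markers, and Cdh2 and Sp7. Other genes, such as Pax5 and Ly6g at 0, were named after their values were seen. A further list of 24 leukocyte genes is not reported here, so the list of 20 does not stand for leukocyte genes at large. Groups and replicate numbers came from the labels. With totals of 16594228 to 26784003 reads, 3 counts correspond to 0.103 to 0.201 CPM.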

Additional observations from a re-analysis of the deposited data

Results flagged for a closer look

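Each of these values lay farther from the other libraries of its genotype and CD45 sort than Dixon's criterion allows. Of 42 checks of this kind, each on a gene or on the median over the genes in a genotype and CD45 sort, 8 held such a value. The usual rate of about 1 in 20 is no reference here. Each check pooled TdT+ and TdT- libraries on values that were not logged, and the checks share libraries, so they are not independent. In WT TdT-;CD45- library 3, 5 of the 10 genes stood above the other WT CD45- libraries: Ptprc at 337 CPM, Coro1a at 607 CPM, Laptm5 at 2053 CPM, Rac2 at 492.7 CPM and Lcp1 at 1447 CPM. The same library had 9177 CPM over the macrophage genes and the fewest fibroblast reads of the CD45- libraries. In WT TdT-;CD45+ library 2, Ptprc stood at 1821 CPM and Rasal3 at 28.3 CPM, above the other WT CD45+ libraries. That library had 3891 CPM over the B cell genes and 2690 CPM over the T cell genes. Laptm5 stood at 1540 CPM in cKO TdT+;CD45- library 1, above the other CD45- libraries labelled Cdh2-cKO.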

How the results depend on the processing

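With the TdT comparison in CD45- cells, the count of 284 genes became 982 with DESeq2, 718 with voom, 92 with no filter and 185 with the replicate block. Without single libraries it ran from 30 to 878: it was 525, 878, 702 and 454 without WT TdT-;CD45- libraries 1 and 3, WT TdT-;CD45+ library 2 and WT TdT+;CD45- library 2, and 30 to 181 without any of 15 others, among them all 6 cKO CD45+ libraries. Of the 9 genes tested there (Rasal3 aside) 0 were called, but 1 with DESeq2, 2 with voom, and 0 to 4 without single libraries. An alternative chosen after seeing the data left out WT TdT-;CD45- library 3 and WT TdT-;CD45+ library 2 together and called 1509 genes, 6 of the 9 among them (Coro1a, Laptm5 and Rac2 were not). Without single libraries the log2 fold change ran from -1.14 to 2.19 for Ptprc, -0.53 to 2.10 for Coro1a, -0.95 to 2.22 for Laptm5, -1.001 to 1.99 for Rac2 and -0.92 to 2.21 for Lcp1; the negative value came each time without WT TdT+;CD45- library 2. Arhgdib, Cd53, Vav1 and Was stayed positive in each of these fits. DESeq2 called 6 genes in the TdT comparison in CD45+ cells, and 83 (CD45+) and 124 (CD45-) between the genotypes. Between the genotypes the count ran from 0 to 1 (CD45+) and from 0 to 95 (CD45-, the highest without WT TdT+;CD45- library 2) when single libraries were left out, and was 79 in CD45- cells without both WT libraries named above. The replicate block changed no other count of calls; it was not run between the genotypes, because the numbers lie within a genotype. The 2.12% of the cKO TdT-;CD45- group became 2.75% with plain CPM, 2.56% against the CD45+ libraries of the same genotype and TdT class, and 3.37% as a mean over the genes. The cause of these changes was not tested.

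Groups of 2 and 3 libraries, and libraries that differ this much within a group, limit what these comparisons can show; counts under about 12, as for Rasal3 and Was in several CD45- libraries, add counting error.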
